A study of Mus musculus with 6 samples.

Results

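The transcripts of 10 genes of the Notch pathway were followed in the rostral telencephalon of E11.5 mouse embryos that did or did not carry a conditional deletion of Dicer, whose product turns miRNA precursors into mature miRNAs. The genes were the receptors Notch1 and Notch2, the ligands Dll1, Dll3 and Jag1, the glycosyltransferase Lfng, the transcriptional repressors Hes1, Hes5 and Hey1, and Hes6. They were chosen by name and make up 10 of the 55471 gene rows of the deposited count tables, each with a single row. The control group held 3 samples carrying floxed Dicer alleles and no Cre, which the labels call WT. The Rx-Dicer group held 3 samples with the same floxed alleles plus Rx-Cre. The floxed line was kept on C57BL/6 and the Cre line on CD1, and embryos of either sex were used. According to the study, Rx-Cre acts early in the telencephalic vesicles, and at these stages Dicer was lost far more fully from the rostral and ventral telencephalon, the region sampled being the most rostral, than from the neocortex. The share of cells in each library that kept Dicer is not given. Neither the labels nor the methods say whether a sample was 1 embryo or a pool, and p-values therefore measure the spread between these samples only.

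Notch signalling keeps neural progenitors from differentiating. Cells that start to differentiate express proneural factors and Delta ligands, the ligands activate Notch receptors on neighbouring cells, and the cleaved receptor joins RBPJ in the nucleus to switch on HES and HEY repressors, which silence the proneural genes. Fringe enzymes such as Lfng add sugars to the receptor and change which ligands it answers to, while Hes6 is induced in differentiating cells and counteracts Hes1.

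Sequencing gave 34471501 to 48373468 counts on genes per library, and all 10 genes lay far above the floor of 3 counts. Of the telencephalic markers, Lhx2 had 14071 to 22363 and Emx2 4997 to 9840 normalised counts in the 6 libraries and neither was called, while Six3 had 1357, 684 and 1048 in control 1, 2 and 3 and 2177, 3018 and 2247 in Rx-Dicer 1, 2 and 3 and rose in the mutants (log2 fold change 1.27 ± 0.22, adjusted p = 6.27e-06). Dicer1 had 6355, 7070 and 6270 normalised counts in control 1, 2 and 3 and 4777, 7002 and 4644 in Rx-Dicer 1, 2 and 3, so Rx-Dicer 2 lay at the control level (log2 fold change -0.26 ± 0.17 SE, adjusted p = 0.567). The floxed segment is only part of the gene, so whole-gene counts are a weak check of the deletion. Control 3 and Rx-Dicer 2 also stood apart in regional markers. Emx1, a pallial marker, had 4764, 5286 and 2156 normalised counts in the controls and 4291, 921 and 3615 in the mutants, and Dlx2, a subpallial marker, had 1048, 1336 and 3044 against 771, 4079 and 717. Some regional markers also moved with genotype. Of the 7 subpallial markers, Lhx6 and Lhx8 were called higher in the mutants (log2 fold changes 1.61 ± 0.34 and 2.55 ± 0.49), and Nkx2-1, with 3.7, 52 and 192 normalised counts in the controls and 682, 1882 and 1307 in the mutants, was higher in all 3 mutants without passing the test (adjusted p = 0.0549). The rest, Dlx1, Dlx2, Dlx5 and Gsx2, overlapped between genotypes and were not called (log2 fold changes 0.19, 0.04, 0.20 and -0.18). Of 5 pallial markers, 1 was called, and it was lower (Eomes). Results that rest on control 3 and Rx-Dicer 2 are therefore also given without them.

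Of the 10 Notch genes, 1 changed between genotypes. Hes6 fell in Rx-Dicer embryos, and 9 genes did not pass the test. A gene was called changed when the DESeq2 Wald test gave it an adjusted p under 0.05 and a log2 fold change beyond 0.32 in either direction, and 2.93% of the 17128 genes tested were called (1.75% higher and 1.18% lower in Rx-Dicer). These shares are the background for the called genes of every list and marker set read here. Hes6 and Notch2 had an unadjusted p under 0.05, which 13.1% of tested genes had. With edgeR's quasi-likelihood test none of the 10 was called at the same thresholds, 2 again had an unadjusted p under 0.05, and 0.0446% of all genes tested were called. The share of all genes with an unadjusted p under 0.05 in edgeR was not computed. The median log2 fold change of the 10 genes was -0.028, beside -0.0009 over all genes tested, and the median size of the change regardless of sign was 0.16 in both. Libraries of both genotypes overlapped for 7 of the genes, while Notch2 was higher in all 3 mutants and Dll3 and Hes6 were lower in all 3. Such separation occurred in 19.3% of tested genes.

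**Figure D1:**
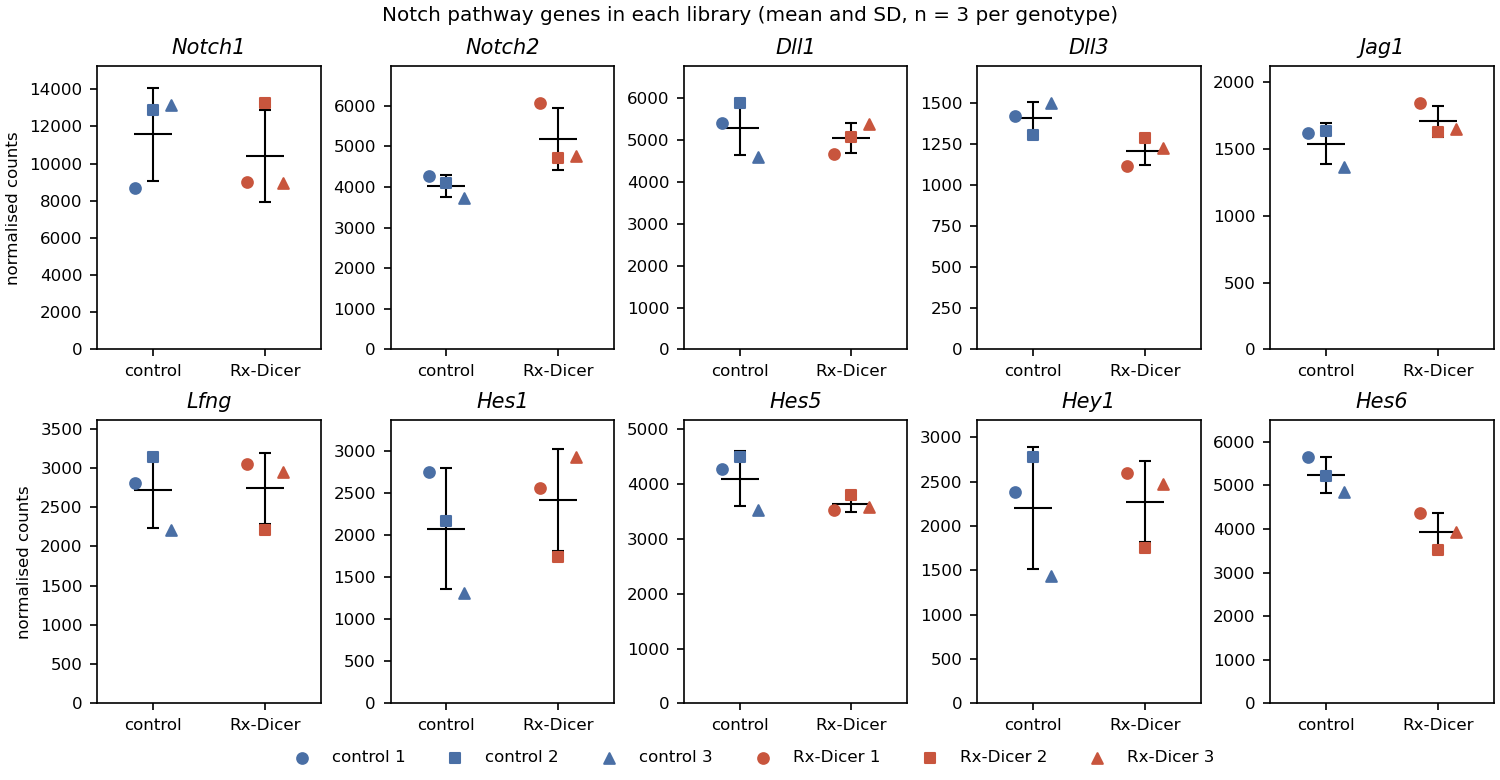
Normalised counts (vertical axis, linear from 0) of each of the 10 Notch genes in 3 control (blue) and 3 Rx-Dicer (red) libraries. Circles, squares and triangles mark replicates 1, 2 and 3, the black line is the mean and the bar the SD. Hes6 lies between 4842 and 5649 in controls and between 3515 and 4362 in mutants, and Hes1, Hey1 and Lfng are lowest in control 3 and Rx-Dicer 2.

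Hes6 (ENSMUSG00000067071, chr1:91411483-91414038, minus strand) is expressed in cells leaving the progenitor state, where it opposes Hes1. It had 5649, 5220 and 4842 normalised counts in control 1, 2 and 3 and 4362, 3515 and 3919 in Rx-Dicer 1, 2 and 3. The highest mutant library was below the lowest control, and means were 5237 ± 404 and 3932 ± 424 (SD, n = 3), a level 24.9% lower in mutants. The log2 fold change was -0.41 ± 0.13 (SE), with an adjusted p of 0.0488 in DESeq2 and 0.200 in edgeR. In bulk tissue, fewer cells expressing a gene and less of its RNA per cell cannot be told apart. The call stood at the edge of the threshold: it was lost in 14 of 20 alternative analyses, some of which only loosened a threshold and could not lose it. Over the 20 the adjusted p ranged from 0.00208 to 0.200 and the log2 fold change from -0.50 to -0.33. Leaving out control 1, control 2, control 3, Rx-Dicer 2 or Rx-Dicer 3 ended the call (adjusted p = 0.148, 0.194, 0.0503, 0.117 and 0.137), and leaving out Rx-Dicer 1 did not (adjusted p = 0.00580).

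The receptors Notch1 and Notch2 are both expressed by progenitors of the ventricular zone. Notch2 (ENSMUSG00000027878, chr3:98013527-98150361, plus strand) had 4263, 4093 and 3733 normalised counts in the controls and 6058, 4722 and 4766 in the mutants. All mutants were above all controls, with Rx-Dicer 1 highest, and the mean was 28.6% higher, yet Notch2 did not pass the test (log2 fold change 0.36 ± 0.14, adjusted p = 0.149). Over the 20 alternatives its adjusted p was 0.0593 to 0.414, and without Rx-Dicer 1 the log2 fold change was 0.23. Notch1 (ENSMUSG00000026923, chr2:26457903-26516663, minus strand) had 8697, 12905 and 13146 normalised counts in the controls and 9016, 13247 and 8968 in the mutants. Control 2, control 3 and Rx-Dicer 2 were high and the other 3 libraries low, in both genotypes alike, and the 95% interval of the fold difference ran from 0.690 to 1.17.

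Among the ligands, Dll1 (ENSMUSG00000014773, chr17:15367354-15376872, minus strand), the main Delta ligand of differentiating cells here, had 5404, 5870 and 4578 normalised counts in the controls and 4662, 5057 and 5382 in the mutants. The genotypes overlapped fully, and the interval of the fold difference was 0.795 to 1.14 (adjusted p = 0.932). Dll3 (ENSMUSG00000003436, chr7:28293553-28302238, minus strand) is a divergent ligand that acts within its own cell to dampen Notch. It had 1416, 1305 and 1496 normalised counts in the controls and 1117, 1283 and 1223 in the mutants. The mutants were all lower, by 14.1% on average, but Rx-Dicer 2 came close to control 2 and the difference did not pass the test (log2 fold change -0.22 ± 0.13, adjusted p = 0.504). Jag1 (ENSMUSG00000027276, chr2:137081456-137116644, minus strand), a ligand of the Jagged class, had 1617, 1638 and 1365 normalised counts in the controls and 1843, 1629 and 1651 in the mutants, with an interval of the fold difference from 0.926 to 1.33 (adjusted p = 0.760). Control 3 was the lowest library and Rx-Dicer 1 the highest, and the rest were nearly level.

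The HES and HEY repressors are the direct readout of the pathway. Hes5 (ENSMUSG00000048001, chr4:154960923-154962371, plus strand) had 4270, 4496 and 3532 normalised counts in the controls and 3520, 3802 and 3584 in the mutants. Control 3 lay within the mutant range, and the interval of the fold difference was 0.743 to 1.06 (adjusted p = 0.671). Hes1 (ENSMUSG00000022528, chr16:30064384-30067796, plus strand) had 2743, 2171 and 1312 normalised counts in the controls and 2561, 1743 and 2925 in the mutants, and Hey1 (ENSMUSG00000040289, chr3:8663359-8667256, minus strand) had 2383, 2779 and 1440 against 2604, 1749 and 2472. Both varied more within a genotype than between genotypes, with adjusted p of 0.846 and 0.979, and their fold differences had intervals of 0.832 to 1.62 and 0.760 to 1.41. Differences within these intervals were not excluded. Lfng (ENSMUSG00000029570, chr5:140607320-140615545, plus strand), the fringe enzyme that is itself a Notch target, had 2801, 3138 and 2202 normalised counts in the controls and 3051, 2214 and 2950 in the mutants (interval 0.798 to 1.28, adjusted p = 0.993).

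Hes1, Hey1 and Lfng shared the same ordering at the low end: control 3 was the lowest of the 6 libraries for all 3 genes and Rx-Dicer 2 the next. Emx1 was lowest in the same 2 libraries, and Dlx1, Dlx2 and Gsx2, made by subpallial progenitors, were highest in them. Gsx2 had 310, 369 and 865 normalised counts in the controls and 138, 1062 and 162 in the mutants. Notch1 went the other way, with Rx-Dicer 2 and control 3 its 2 highest libraries. Without control 3, without Rx-Dicer 2 and without both, the log2 fold change of Notch1 was -0.053, -0.36 and -0.26, against -0.15 with all libraries, and it was called in none of these. Nkx2-1, Lhx6 and Lhx8 were higher in every mutant than in every control. The part of regional composition in these levels was not tested. Without control 3 the log2 fold changes of Hes1, Hey1 and Lfng were -0.028, -0.18 and -0.12, and without Rx-Dicer 2 they were 0.41, 0.21 and 0.15. Hey1 and Lfng also turned lower without Rx-Dicer 1 (-0.062 and -0.073) and without Rx-Dicer 3 (-0.015 and -0.043). None of these was called, and leaving out 1 library was enough to turn the direction of each of the 3 genes. With both libraries left out, none of the 10 genes was called and Hes6 had a log2 fold change of -0.39 (adjusted p = 0.174). With a score of subpallial minus pallial markers as a covariate, chosen after seeing the data, Hes6 remained the single gene of the 10 called (log2 fold change -0.41, adjusted p = 0.00208). The score was the mean log2 level of Dlx1, Dlx2, Dlx5 and Gsx2 minus that of Emx1 and Emx2. It left out Nkx2-1, Lhx6, Lhx8 and Eomes, which separated the genotypes. Its values were -3.55, -3.27 and -1.01 in the controls and -3.65, -0.047 and -4.02 in the mutants. Because the score was built from markers that overlapped between genotypes, this fit cannot adjust for the regional markers that separated them.

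**Figure D2:**
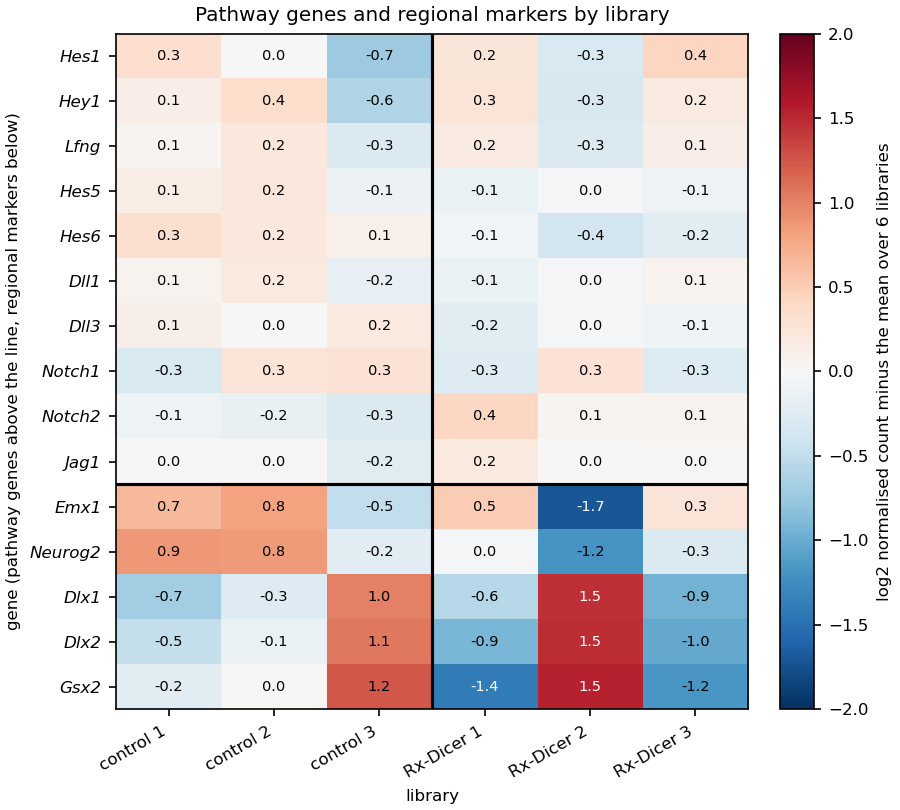
Log2 normalised count of each gene in each library minus the gene's mean over the 6 libraries (colour and printed number), for the 10 Notch genes above the horizontal line and 5 regional markers below it. Hes1, Hey1 and Lfng are below their mean in control 3 and Rx-Dicer 2, the 2 libraries in which Dlx1, Dlx2 and Gsx2 are above theirs.

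Levels were compared between genes in FPKM, the fragments per kilobase of merged exons scaled to each library's counts on genes. Hes5 and Hes6 were the most abundant, at 70.8 ± 7.79 and 68.2 ± 5.35 FPKM in controls (SD, n = 3), and their control libraries overlapped. Both were above about 95% of the 14382 protein-coding genes compared (95.96% and 95.79%). Dll1 followed at 29.5 ± 3.21 FPKM, clear of Hes6, then Lfng at 25.5 ± 4.07, Hes1 at 24.0 ± 8.32, Notch1 at 19.2 ± 4.06, Hey1 at 15.8 ± 4.74 and Dll3 at 11.6 ± 0.992 FPKM, with each neighbour in this order overlapping the next. Notch2 (8.80 ± 0.566 FPKM) lay below all Dll3 libraries and Jag1 (6.22 ± 0.550 FPKM) below all Notch2 libraries. In mutants Hes5 stood at 63.7 ± 4.23 FPKM and Hes6 at 51.9 ± 5.54 FPKM, and no library of Hes6 reached the lowest library of Hes5. Notch2, at 11.48 ± 1.81 FPKM, stood above Dll3, at 10.1 ± 0.830 FPKM, in the order of the mutant means, although their libraries overlapped. Merged exons include those of minor transcripts, which lowers the FPKM of genes such as Notch1, whose merged exons span 14232 bases.

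**Figure D3:**
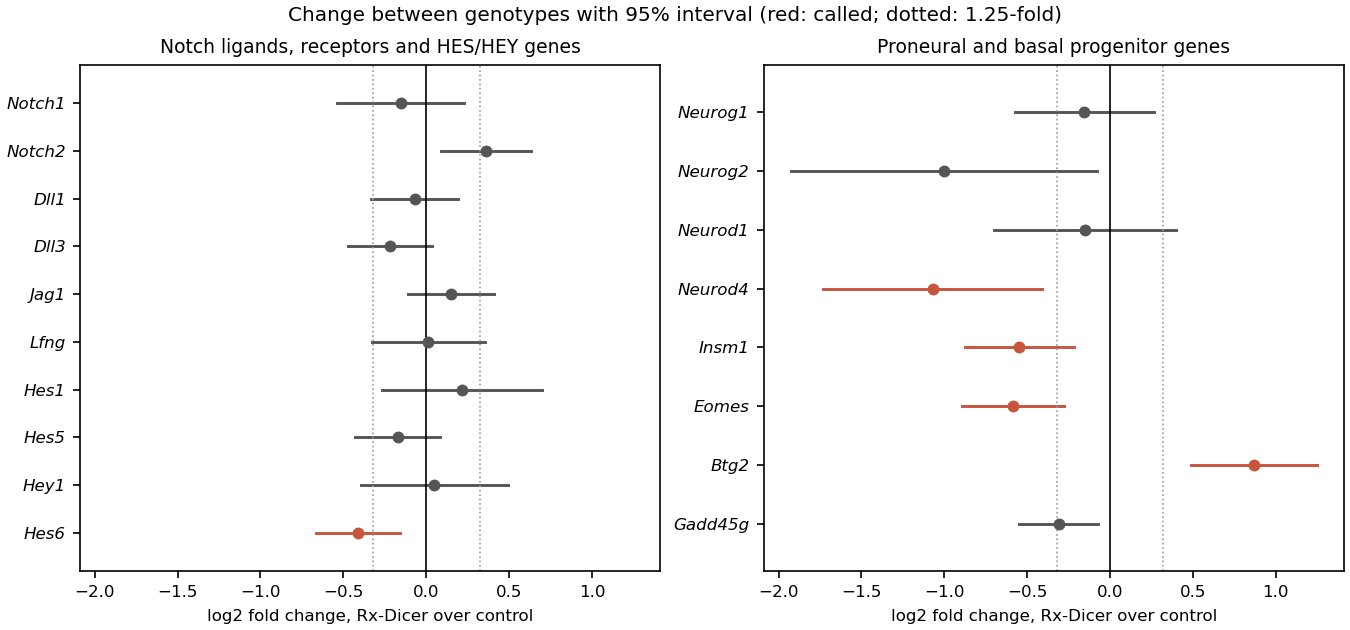
Log2 fold change of Rx-Dicer over control (horizontal axis) with its 95% interval for the 10 Notch genes (left) and 8 of the proneural and basal progenitor genes (right). Red marks genes called by the DESeq2 test and dotted lines a log2 fold change of 0.32 in either direction. Hes6 is the only Notch gene in red, while Neurod4, Insm1 and Eomes lie to the left of 0 and Btg2 to the right.

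Because miRNAs are what Dicer makes, the 3′ UTRs of the 10 genes were searched for 7-base matches to the seed (bases 2 to 8) of let-7a-5p, miR-9-5p, miR-34a-5p, miR-17-5p, miR-92a-3p and miR-125b-5p. The 4 with matches in the receptors, ligands or Lfng are printed from RefSeq, 5′ to 3′, with the seed in capitals.
let-7a-5p: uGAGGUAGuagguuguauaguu
miR-9-5p: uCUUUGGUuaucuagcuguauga
miR-34a-5p: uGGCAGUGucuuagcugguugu
miR-125b-5p: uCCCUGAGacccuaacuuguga

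The match to miR-34a-5p occurred in 4 of the 10 genes (Notch1, Notch2, Dll1 and Jag1), beside 14.3% of 21000 genes with an annotated 3′ UTR. miR-9-5p matched Notch1 and Notch2 (12.2% of all genes), miR-125b-5p matched Notch1 and Lfng (13.1%), and let-7a-5p matched Dll3 (9.02%). miR-17-5p and miR-92a-3p matched none of the 10 (11.8% and 6.57% of all genes), and Hes1, Hes5, Hes6 and Hey1 held no match to any of the 6 seeds. The 3′ UTRs searched in these 4 genes had 368, 696, 575 and 1137 bases. Those of Notch1, Notch2, Jag1 and Lfng had 1628, 2917, 1568 and 1072, and those of Dll1 and Dll3, which held matches, 676 and 368. The shares over all genes were not matched for length. The sites below are examples from Notch2 and Dll3, 2 of the genes whose genotypes did not overlap, and the miR-9-5p site of Notch1 for comparison with that of Notch2. Notch2 has 1 further match to miR-34a-5p and Notch1 has 3, which are not printed. They are read from GENCODE transcripts on GRCm38 in the sense of the gene, and capitals mark the 7 bases that pair with the seed.
Notch2, miR-9-5p site, chr3:98150017-98150023, plus strand: catagaaatgaACCAAAGgtgttcagtgt
Notch1, miR-9-5p site, chr2:26459441-26459447, minus strand: atgctggggcgACCAAAGgagccttttaa
Notch2, miR-34a-5p site, chr3:98149605-98149611, plus strand: gaagaagacaaCACTGCCagtcatacatc
Dll3, let-7a-5p site, chr7:28293827-28293833, minus strand: gtgtccaatctCTACCTCcccctaccgac

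Notch2, with matches to miR-9-5p and miR-34a-5p, had higher values in all mutants, whereas Notch1, with matches to the same 2 seeds, overlapped between genotypes, and Dll3, the 1 gene with a let-7a-5p match, was lower in all mutants. A seed match is a description of the sequence, and whether these miRNAs act on these transcripts was not tested. miR-124-3p was not searched, and miRNA levels were not analysed here.

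The promoters of the pathway's target genes were searched for TGGGAA and for its longer form GTGGGAA, the core bound by RBPJ, on both strands from 250 bases before to 50 bases after each start. RefSeq windows on GRCm38.p6 were at hand for 8 of the 10 genes, all but Hes1 and Hey1. Hes5 and Lfng held both motifs, beside 25.6% of 32851 windows with TGGGAA and 6.38% with GTGGGAA. In Hes5 the longer form occurred once on each strand, and in Lfng the longer form occurred once and TGGGAA once more on the opposite strand. Both windows are shown because Hes5 and Lfng are target genes with these matches, and capitals mark the motifs (TTCCCA and TTCCCAC where they lie on the opposite strand).
Hes5, chr4:154960673-154960972, plus strand: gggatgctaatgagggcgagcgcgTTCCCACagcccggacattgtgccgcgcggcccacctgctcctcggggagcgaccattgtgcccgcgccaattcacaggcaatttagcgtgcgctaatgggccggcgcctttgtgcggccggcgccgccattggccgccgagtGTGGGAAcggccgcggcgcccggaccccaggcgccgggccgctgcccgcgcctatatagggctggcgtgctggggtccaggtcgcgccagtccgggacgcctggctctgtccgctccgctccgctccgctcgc
Lfng, chr5:140607091-140607390, plus strand: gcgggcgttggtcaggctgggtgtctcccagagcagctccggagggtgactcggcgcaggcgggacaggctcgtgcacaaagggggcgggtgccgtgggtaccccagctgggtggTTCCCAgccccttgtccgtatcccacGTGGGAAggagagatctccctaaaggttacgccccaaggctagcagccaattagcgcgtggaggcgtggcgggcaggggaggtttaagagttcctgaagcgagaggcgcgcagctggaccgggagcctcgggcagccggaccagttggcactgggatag

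The Lfng window also held CACGTG, a site of the kind bound by bHLH and related factors, which overlaps its GTGGGAA and occurred in 7.15% of all windows. CACNAG, a form bound by HES repressors, was found in the windows of Dll1, Hes6, Lfng, Notch1 and Notch2 and in 42.5% of all windows. Hes5 and Lfng, which share the RBPJ core, did not share a pattern over the libraries: Lfng was low in control 3 and Rx-Dicer 2, whereas Hes5 was lowest in Rx-Dicer 1 and control 3.

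The wider pathway was read from a list of 47 further genes, of which 44 could be tested. Of these, 2 were called higher in Rx-Dicer (Dlk1 and Kat2b), 0 were called lower and 42 did not pass, with a median log2 fold change of 0.0017. Over all genes tested, 1.75% were called higher and 1.18% lower. edgeR called 0 of them, and 8 had an unadjusted p under 0.05 there. In DESeq2 7 of the 44 had an unadjusted p under 0.05, beside 13.1% of all genes tested. By role, 1 of 7 receptors and ligands was called, 0 of 4 glycosylation genes, 0 of 10 genes of receptor cleavage, 0 of 12 of ligand endocytosis and receptor turnover, 1 of 8 of the nuclear complex and 0 of 3 tested targets. Hes2, Hes3 and Hes7 were near or at 0, with at most 14 normalised counts in any library, and could not be tested.

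Dlk1, a Delta-like protein that lacks the domain with which canonical ligands bind Notch, had 3079, 5017 and 6455 normalised counts in the controls and 9235, 12002 and 12570 in the mutants. All mutants were above all controls, and the mean rose from 4851 ± 1694 to 11270 ± 1784 (SD, n = 3; log2 fold change 1.22 ± 0.22, adjusted p = 1.97e-05 in DESeq2 and 0.144 in edgeR). DESeq2 called Dlk1 in every alternative, with log2 fold changes from 0.97 to 1.48. Of 6 markers of the hypothalamus and optic field, 3 (Otp, Sim1 and Vax1) also separated the genotypes. The 6 markers summed to 273 to 349 normalised counts in controls and 654 to 759 in mutants. Vax1 made up most of this sum, with 176, 225 and 312 in the controls and 429, 662 and 420 in the mutants. Of the 5 tested, 2 (Otp and Vax1) were called higher. Rax, at 0.94 to 45 counts in controls and 20 to 39 in mutants, overlapped between genotypes, as did Six6, and Nkx2-4 was near 0. The part of these genes in the Dlk1 difference was not tested. Kat2b, an acetyltransferase that joins the Notch transcription complex, had 528, 539 and 448 normalised counts in the controls and 708, 700 and 711 in the mutants (log2 fold change 0.49 ± 0.15, adjusted p = 0.0389 in DESeq2 and 0.195 in edgeR). The mutants were nearly identical to each other and above every control, but the call was lost in 11 of 20 alternatives, among them without control 3 (adjusted p = 0.146), without Rx-Dicer 1 (0.0580) and without Rx-Dicer 3 (0.0858).

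Among genes that did not pass, Mib1, the ubiquitin ligase that primes Delta ligands for endocytosis and the gene of the list with the highest count averaged over all 6 libraries (Dlk1 was higher in the mutants), had 9340, 9937 and 9044 normalised counts in the controls and 8991, 10321 and 9190 in the mutants. Rbpj, the DNA-binding partner of cleaved Notch, had 4271, 3992 and 3657 against 4022, 3583 and 4231. Both were level between genotypes, with log2 fold changes of 0.01 ± 0.11 and -0.01 ± 0.12. Psenen, a subunit of the gamma-secretase that cleaves Notch, had 1732, 1632 and 1628 normalised counts in the controls and 1298, 1150 and 1459 in the mutants, all lower (log2 fold change -0.35 ± 0.13, adjusted p = 0.151). Nrarp, a Notch target that feeds back on the pathway, had 6011, 6074 and 5513 against 4256, 5346 and 5264, again all lower (log2 fold change -0.24 ± 0.13, adjusted p = 0.422).

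**Figure D4:**
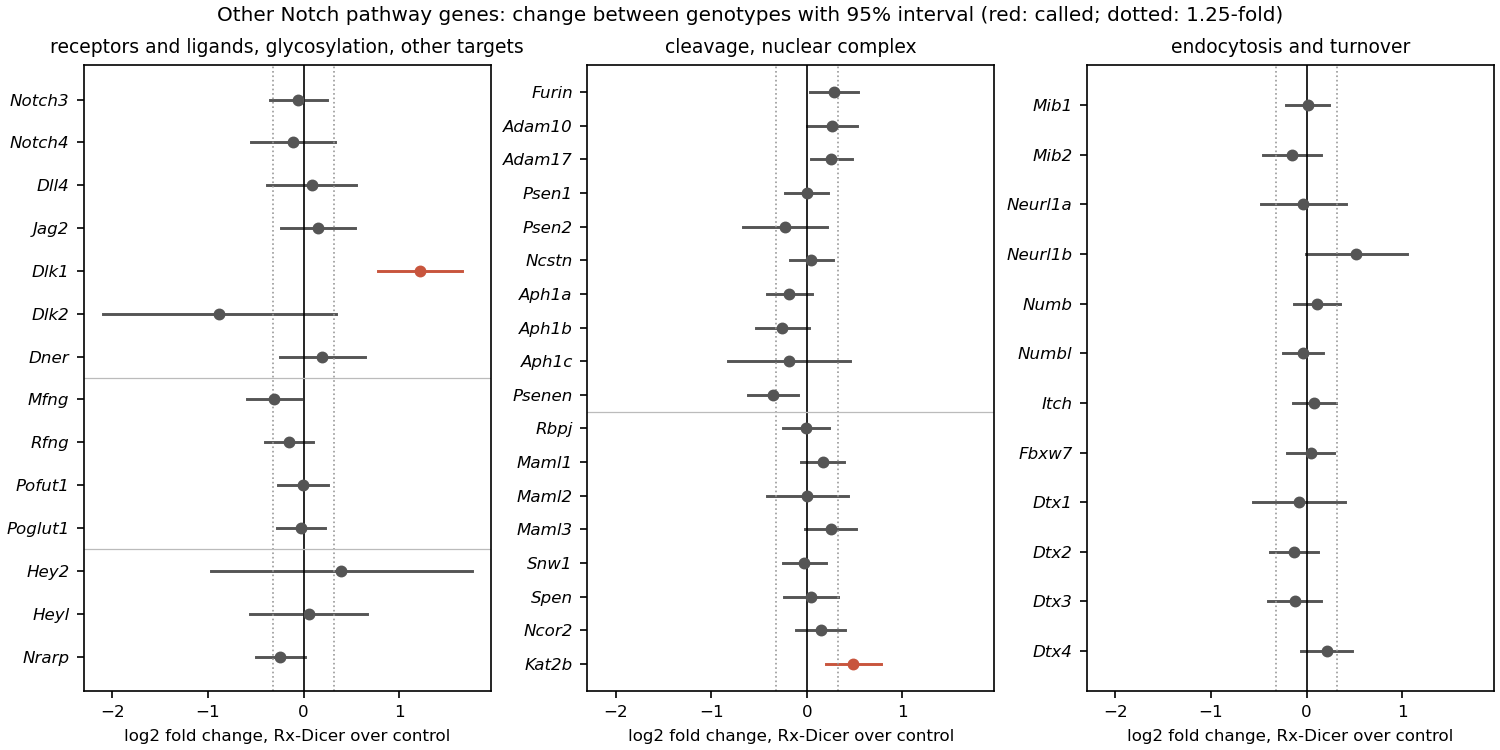
Log2 fold change of Rx-Dicer over control (horizontal axis) with its 95% interval for the 44 further Notch pathway genes that could be tested, grouped by role and separated by grey lines. Red marks the 2 called genes, Dlk1 at 1.22 and Kat2b at 0.49, and dotted lines mark a log2 fold change of 0.32 in either direction.

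Notch4, Dll4 and Heyl are known chiefly from blood vessels, and none of them passed the test. Notch4 had 562, 605 and 576 normalised counts in the controls and 573, 690 and 350 in the mutants, Dll4 had 204, 227 and 209 against 250, 270 and 161, and Heyl had 459, 520 and 585 against 513, 852 and 262. All 3 genes were highest in Rx-Dicer 2 and lowest in Rx-Dicer 3. The 11 endothelial markers summed to 8743 to 9382 normalised counts in controls and to 11368, 11861 and 5417 in Rx-Dicer 1, 2 and 3, with 0 of 11 called. The part of endothelial cells in these 3 levels was not tested.

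Proneural and basal progenitor genes, which lie upstream of the Delta ligands and Hes6 or mark the cells that carry them, were read in the same way. Of 9 genes, 3 were called lower (Eomes, Insm1 and Neurod4), 1 higher (Btg2) and 5 did not pass, with a median log2 fold change of -0.31. The shares over all genes tested were 1.18% lower and 1.75% higher. edgeR called 0 of them, and 6 had an unadjusted p under 0.05 there. In DESeq2 6 of the 9 had one as well, beside 13.1% of all genes tested. Eomes, a factor of basal progenitors, had 5752, 5499 and 4111 normalised counts in the controls and 3273, 3120 and 3835 in the mutants (log2 fold change -0.59 ± 0.16, adjusted p = 0.0137). Insm1, which promotes the formation of basal progenitors, had 3749, 2632 and 3009 against 1871, 2492 and 2060 (log2 fold change -0.55 ± 0.17, adjusted p = 0.0418). All mutants were below all controls for both genes, with Rx-Dicer 3 close to control 3 for Eomes and Rx-Dicer 2 close to control 2 for Insm1. Neurod4, a bHLH factor of early differentiation, had 498, 277 and 283 normalised counts in the controls and 91, 249 and 164 in the mutants (log2 fold change -1.07 ± 0.34, adjusted p = 0.0499). These calls were less firm than that of Btg2: Eomes was lost in 7, Insm1 in 11 and Neurod4 in 12 of 20 alternatives.

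Btg2, an antiproliferative gene of neurogenic progenitors that is also a p53 target, had 4478, 3867 and 3099 normalised counts in the controls and 8365, 5083 and 7475 in the mutants. It rose in all 3 mutants, least in Rx-Dicer 2 (log2 fold change 0.87 ± 0.19, adjusted p = 0.00115 in DESeq2 and 0.172 in edgeR), and only the edgeR test ended the call. Microglial markers were high in Rx-Dicer 1 and 3, where the 8 genes summed to 4759 and 2926 normalised counts, and 2 of the 8 were called higher. In Rx-Dicer 2 they summed to 1362, at the control level (1224 to 1434), whereas Btg2 in that library was above every control. The part of microglia in the Btg2 difference was not tested.

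Neurog2, the proneural factor of the pallium, had 6177, 6080 and 2903 normalised counts in the controls and 3323, 1485 and 2752 in the mutants (log2 fold change -1.004 ± 0.47, adjusted p = 0.308). Control 3 lay among the mutants, and Rx-Dicer 2, with the least Emx1, was lowest. With these 2 libraries left out, Neurog2 was called lower. The summed neuronal markers overlapped between genotypes (77112 to 102122 normalised counts in controls and 68058 to 95634 in mutants). Of these 12 genes 1 was called, Nefl, which was higher in mutants (log2 fold change 1.52 ± 0.29, adjusted p = 6.64e-05). A further 4 were lower with an unadjusted DESeq2 p under 0.05, which 13.1% of all genes tested had in either direction. The summed apical progenitor markers overlapped as well (159487 to 172294 and 144635 to 163914), and 2 of 9, Pax6 and Fabp7, were called lower. The part of neurons and apical progenitors in the Hes6 and proneural differences was not tested.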

How the data were processed

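The authors deposited raw counts of reads per gene, in 2 files for each of 6 libraries. Per the labels and the study's methods, libraries were directional and read as pairs, reads were trimmed (Trim Galore 0.6.5), aligned to GRCm38.p6 (HISAT2) and counted on the reverse strand (HTSeq 0.12.4). The 2 files of a library differed by a chi-square per degree of freedom of 1.13 to 1.52, against 22.5 to 32.6 between libraries of a group, and were summed as repeat runs. Between 24.9% and 31.0% of the counted entries named no gene and were left out. Depth set a floor (3 counts) of 0.0620 to 0.0870 CPM, which covers counting error only.

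Genotypes were compared with DESeq2 1.42.0 (R 4.3.3), the study's tool, on all genes with genotype as the only term, median-of-ratios scaling, unshrunken fold changes and Benjamini-Hochberg adjustment; tests are two-sided and intervals are 95% Wald intervals. edgeR 4.0.16 (10 or more counts in 3 or more libraries) was the main alternative. On simulated counts for this comparison (30928 genes, 200 changed 2-fold, median of 3 draws) DESeq2 recovered 91% with 19.3% of calls wrong, and edgeR 79% with 6.32%. The changed genes were drawn from the better counted genes only, and recovery of changes as small as that of Hes6 was not measured. FPKM, motif and seed searches used GENCODE vM21 and RefSeq sequences. The text names all 10 genes, Dicer1, and from the pathway and proneural lists every called gene and the 2 of highest mean count. Rbpj, Psenen, Nrarp, Notch4, Dll4, Heyl, Neurog2 and the regional markers were named after their values were seen. The values of 1 proneural gene and 1 telencephalic marker are not reported here. The members and lists were chosen with earlier results of these data known.

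There were 20 alternatives: another test, other scaling factors, filters and thresholds, the replicate number as a block, a length and GC correction, single files, and each library left out. The adjusted p under 0.1 and the fit without a fold minimum left the adjusted p-values unchanged and only loosened the thresholds. No call could be lost in them, and counts of lost calls out of 20 include them. The marker covariate and the omission of both control 3 and Rx-Dicer 2 were added after seeing the data.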

Additional observations from a re-analysis of the deposited data

How the results depend on the processing

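With 3 libraries per genotype, most calls depended on the analysis. The number of genes called was 502 in the main analysis, 8 with edgeR, 322 without independent filtering, 314 with the replicate block, 299 with this block plus correction for length and GC, 740 at an adjusted p under 0.1, 850 with the marker covariate, and 285 to 637 when 1 library was left out. The 1 Notch gene called became 0 under edgeR, TMM factors, total counts as scale, no independent filtering, the replicate block, the length and GC correction with and without that block, the first file of each library and the omission of control 3 and Rx-Dicer 2, and was 0 to 1 when 1 library was left out. The 2 calls of the other Notch pathway genes became 0 under edgeR and 1 without independent filtering, with the block, after correction for length and GC, with both, with either file alone and without control 3 and Rx-Dicer 2, and were 1 to 3 when 1 library was left out. The 4 proneural calls became 0 under edgeR, 2 with total counts, 2 without independent filtering, 1 with the block, 2 with the block and GC correction and 2 with the second file, and were 1 to 4 when 1 library was left out. The proneural calls were 3 with the count filter, with the length and GC correction alone and with the first file. With the marker covariate the pathway calls rose to 3 and the proneural calls to 5. Without control 3 and Rx-Dicer 2 the proneural calls rose to 6. The cause of these losses and gains was not tested.

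The median log2 fold change of the 10 genes was -0.14 to 0.072 when 1 library was left out, lowest without control 3 and highest without control 2. Directions of genes that were not called also turned: Dll1 ranged from -0.16 to 0.013, Lfng from -0.12 to 0.15 (also -0.073 and -0.043), Hes1 from -0.028 to 0.47 and Hey1 from -0.18 to 0.25 (also -0.062 and -0.015), and Hey1 was -0.021 without control 3 and Rx-Dicer 2. Hes6, Hes5, Dll3 and Notch1 stayed lower and Notch2 and Jag1 higher in all 20 alternatives. The length and GC correction moved the median of all tested genes to -0.048. Higher genes made up 59.8% of calls, 72.3% with the block, 41.8% without Rx-Dicer 1 and 79.7% without control 3 and Rx-Dicer 2. Deviations of same-numbered libraries correlated at 0.189, 0.0372 and -0.143, and those of differently numbered libraries at -0.183 to 0.168. With 3 libraries per genotype these values cannot settle whether the replicate numbers pair the libraries, and the labels name no litters. Dicer1 passed the threshold without Rx-Dicer 2 (log2 fold change -0.47, adjusted p = 0.000881), without control 3 and Rx-Dicer 2 (-0.51, 0.0152) and with the block plus length and GC correction (-0.43, 0.0398).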
